A study of Mus musculus with 6 samples.

Results

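The heat shock protein and cochaperone genes are a set of 10 named genes, of which 9 were measured in mouse retina on 6 short-oligonucleotide arrays, out of 18193 genes that had a probe set with a single gene symbol. They are the Hsp70 genes Hspa1a, Hspa1b, Hspa8 and Hspa2, the Hsp110 genes Hspa4 and Hsph1, the J-domain cochaperone gene Dnajb1, the Hsp90 gene Hsp90aa1, the small heat shock protein gene Hspb1, and Hsf1, the transcription factor of the heat shock response, which was not analysed here. A gene entered through every probe set annotated to its symbol alone, 24 in all, and 21 of these passed a filter on low signal. The genes were chosen from an earlier reading of the same knockout against wildtype contrast, in which Hspa1a and Hspa1b were already known to be lower. Their fold changes are therefore a description, and no p-value for that contrast is given for any of them. A probe set is said to be called when its adjusted p was under 0.05 in a limma fit over all 27022 probe sets that passed the filter.

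The 3 samples of retina labelled ERRβ knockout, on a C57Bl/6 x Sv129 background, were set against 3 samples of wildtype C57Bl/6 retina. All were taken at postnatal day 21, each from 2 pooled retinas of mixed sex, from animals on standard chow and a 12:12 light cycle. ERRβ is the orphan nuclear receptor encoded by Esrrb, and the series asks which retinal transcripts change when it is missing. Genotype and strain background differ together, so their parts in any difference cannot be told apart.

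Heat shock proteins are chaperones that hold or refold unfolded proteins. The cell keeps constitutive members at a high level at all times, such as Hspa8 (Hsc70), which in photoreceptors and other neurons also serves clathrin uncoating and protein traffic. Inducible members, above all Hspa1a and Hspa1b, are switched on by the factor HSF1 when proteins unfold through heat, oxidative damage or other stress. HSF1 binds heat shock elements, in which the bases GAA and their complement TTC alternate with 2 bases between neighbouring units.

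The sequence just before the start of the gene was compared for the members, because the pair that moved together, Hspa1a and Hspa1b, are neighbours in gene order, with no protein-coding gene between them. RefSeq tables for GRCm38.p6 gave such a window for 7 of the 10 genes, and no window was used for Hspa8, Hsp90aa1 or Hsf1. Each line below gives the 250 bases before an annotated start, 5′ to 3′ on the strand of the gene, with every heat shock element of 2 units in capitals. An element is GAA followed after any 2 bases by TTC, or TTC followed after any 2 bases by GAA, and either form reads the same on both strands, with overlaps between the forms allowed.
Hspa1b, chr17:34959239-34959488, minus strand: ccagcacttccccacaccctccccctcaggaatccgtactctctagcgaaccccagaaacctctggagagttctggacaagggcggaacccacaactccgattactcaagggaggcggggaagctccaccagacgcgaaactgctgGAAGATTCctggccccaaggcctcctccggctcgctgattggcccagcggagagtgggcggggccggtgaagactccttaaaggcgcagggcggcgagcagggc
Hspa1a, chr17:34972157-34972406, minus strand: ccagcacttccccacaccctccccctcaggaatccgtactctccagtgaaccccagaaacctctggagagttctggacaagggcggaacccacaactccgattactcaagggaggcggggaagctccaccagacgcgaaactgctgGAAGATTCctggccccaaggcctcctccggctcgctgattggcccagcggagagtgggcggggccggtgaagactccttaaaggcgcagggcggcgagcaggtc
Hsph1, chr5:149636337-149636586, minus strand: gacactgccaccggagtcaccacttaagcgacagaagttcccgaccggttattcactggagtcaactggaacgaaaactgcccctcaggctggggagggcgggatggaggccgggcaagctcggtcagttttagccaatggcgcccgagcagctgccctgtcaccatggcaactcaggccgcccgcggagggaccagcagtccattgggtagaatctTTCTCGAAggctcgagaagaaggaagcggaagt
Hspb1, chr5:135887669-135887918, plus strand: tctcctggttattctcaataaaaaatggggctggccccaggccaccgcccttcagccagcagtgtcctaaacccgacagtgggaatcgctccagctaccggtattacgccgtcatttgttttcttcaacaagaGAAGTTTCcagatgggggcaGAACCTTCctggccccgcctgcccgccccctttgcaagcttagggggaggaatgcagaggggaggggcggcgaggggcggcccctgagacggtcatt

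These are the 4 member genes whose window held a match, and Hspa4, Hspa2 and Dnajb1 had none in theirs. The Hspa1a and Hspa1b windows were alike at 247 of 250 bases and had their match at the same place, from 104 to 97 bases before the start. Hspb1 had a match from 117 to 110 and another from 97 to 90 bases before the start, and Hsph1, which has a pair of annotated starts, had 1 from 33 to 26 bases before the start shown. Of 32851 windows in the table, 12.8% held at least 1 such match. No member window held 3 exact alternating units in a row, which 0.466% of all windows did. Units with a changed base were not searched for. These matches describe letters in a window and say nothing of binding by HSF1.

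The arrays came in 2 scales. Replicates 1 and 2 of both groups had been scaled to a trimmed mean of 500 and replicate 3 of both groups to 150, so signals are compared only within a scaling set, and the fit treats the set as a block. Log2 signals of arrays in the same set correlated at 0.91 to 0.95, and those of arrays in different sets at 0.848 to 0.872. Esrrb itself was no lower in the labelled knockout arrays, where the brightest probe set had 3435, 4012 and 2397, against 2951, 2934 and 1771 in wildtype arrays. The position of these probes relative to the deletion was not known here, so this does not check the labels, and every direction below rests on the labels. The 7 rod markers measured summed to 182064, 204358 and 34150 in labelled knockout and 228507, 224345 and 34902 in wildtype arrays, and none was called. Lens markers differed by group. All 8 measured were called higher, with summed signals of 45296, 38508 and 29753 in labelled knockout and 2738, 2005 and 6307 in wildtype arrays, and none was at 0. Mip, which defines lens fibres, read 495, 285 and 1776 in labelled knockout and 25.4, 20.3 and 182 in wildtype arrays. Of 6 measured pigment epithelium markers 4 were called higher, Rpe65 reading 848, 933 and 39.4 in labelled knockout and 621, 729 and 23.4 in wildtype arrays. For Actb, signal at the 3′ end over that at the 5′ end, which is higher in degraded RNA, was 1.82, 1.66 and 1.67 in labelled knockout and 1.83, 1.89 and 2.32 in wildtype arrays, while that of Gapdh was 0.719 to 0.731 in labelled knockout and 0.712 to 0.779 in wildtype ones. In whole tissue, fewer cells of a type and less RNA per cell cannot be told apart. The part of lens RNA, pigment epithelium RNA and RNA quality in the changes below was not tested.

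Hspa1b, which encodes a stress-induced cytosolic Hsp70, was lower in every labelled knockout array than in the wildtype arrays of its scaling set. Its brightest probe set, 1452318_a_at, read 851, 710 and 166 in labelled knockout replicates 1, 2 and 3, against 3558, 4128 and 602 in wildtype replicates 1, 2 and 3. Within the arrays scaled near 500 that is 780 ± 99.9 in labelled knockout and 3843 ± 403 in wildtype arrays (SD, n = 2 each), a 4.93-fold lower signal, and it was 3.62-fold lower in the pair scaled near 150. The log2 fold change over all arrays was -2.15 ± 0.12 (labelled knockout minus wildtype, SE, n = 3 per group), a 4.45-fold lower signal. The groups did not overlap near 500, but 12 of the 21 kept member probe sets were lower there without overlap. Near 150 there was 1 array per group, so overlap was not possible. The share of all kept probe sets without overlap was not counted, so nothing is read from this count or from the lack of overlap. The replicate arrays scaled near 500 differed by 0.26 on the log2 scale in labelled knockout and by 0.21 in wildtype retina.

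Its other probe sets gave the same picture. Probe set 1427126_at read 436, 370 and 135 in labelled knockout arrays, against 2430, 2490 and 386 in wildtype arrays, a log2 fold change of -2.25 ± 0.20. Probe set 1427127_x_at read 558, 543 and 157 in labelled knockout and 2755, 3055 and 434 in wildtype arrays, a log2 fold change of -2.09 ± 0.17. The 3 probe sets were read from the same arrays, so they are not independent measurements of the gene.

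Hspa1a, the neighbouring gene for a nearly identical protein, had a single probe set, 1452388_at. It read 528, 439 and 103 in labelled knockout arrays, against 2214, 1704 and 199 in wildtype arrays. Each labelled knockout array was below the wildtype arrays of its set, 4.03-fold on average near 500 and 1.94-fold near 150, and the log2 fold change was -1.66 ± 0.21. Signals of the 2 genes cannot be separated with certainty, since a probe set of either may bind RNA of the other. Hspa1a was no longer called without wildtype replicate 2 (-1.67), although its fold change hardly moved, nor when the variance trend or the scaling set was left out of the fit.

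**Figure D1:**
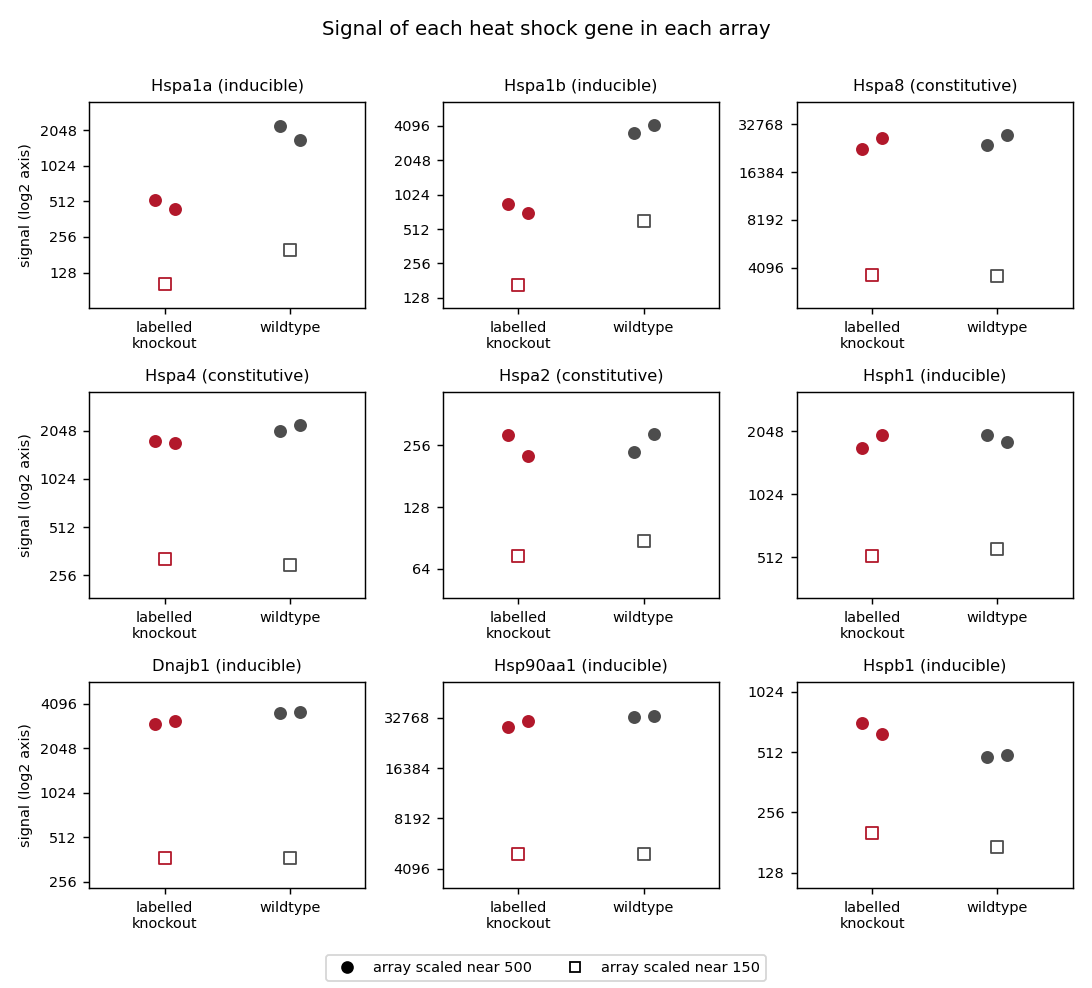
Signal of the brightest kept probe set of each of the 9 measured genes (log2 axis, linear units of the deposited table) in labelled knockout (left, red) and wildtype arrays (right, grey). Filled circles are arrays scaled near 500 (2 per group) and open squares arrays scaled near 150 (1 per group). The labelled knockout points of Hspa1a and Hspa1b lie below every wildtype point of their own set. Near 500 those of Hspa4, Dnajb1 and Hsp90aa1 also lie below, by less, and those of Hspb1 lie above. The points of the groups overlap near 500 for Hspa8, Hspa2 and Hsph1.

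None of the other 4 inducible genes was called, where 1.48% of all genes were called lower and 1.28% higher. Hsph1, an Hsp110 that exchanges the nucleotide of Hsp70, read 1712, 1975 and 521 in labelled knockout arrays, against 1967, 1830 and 558 in wildtype arrays, and the groups overlapped near 500. Its log2 fold change was -0.06 ± 0.09, with a 95% interval of -0.26 to 0.14. Its second probe set had 0.06 ± 0.13.

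Dnajb1, the J-domain protein that delivers clients to Hsp70, read 2998, 3129 and 369 in labelled knockout arrays, against 3532, 3587 and 369 in wildtype arrays. Both labelled knockout arrays scaled near 500 were lower by a small margin, and the pair near 150 was level. The log2 fold change was -0.14 ± 0.082, with an interval of -0.33 to 0.04. Hsp90aa1, the inducible cytosolic Hsp90, read 28795, 31520 and 5009 in labelled knockout arrays and 33296, 33472 and 5019 in wildtype arrays. This again was a small difference near 500 (-0.15) and none near 150 (0.00), with -0.10 ± 0.073 over all arrays. With quantile normalization its sign turned (0.02). Its other 2 kept probe sets had -0.12 ± 0.077 and -0.13 ± 0.083.

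Hspb1, a small heat shock protein that holds unfolded clients and binds actin, went the other way. It read 713, 630 and 203 in labelled knockout arrays, against 482, 494 and 171 in wildtype arrays. The labelled knockout arrays were the higher ones in both sets, by 0.46 near 500 and 0.25 near 150 on the log2 scale, and the log2 fold change was 0.39 ± 0.12. Its second probe set, 1425964_x_at, read 511, 477 and 27.6 in labelled knockout arrays, against 271, 284 and 14.5 in wildtype arrays, a log2 fold change of 0.87 ± 0.19. Neither was called over all arrays, so no increase is claimed for Hspb1. Both were called higher when replicate 3 of either group was left out, the first with 0.46. Of all kept probe sets, 5.55% were called higher without labelled knockout replicate 3 and 5.6% without wildtype replicate 3. The lens markers, whose summed signals are given above, were higher in the same arrays, and their part in the Hspb1 values was not tested.

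None of the 3 constitutive genes was called, and their fold changes were small. Hspa8, the constitutive Hsc70, read 22995, 27030 and 3711 in labelled knockout arrays, against 24303, 28220 and 3653 in wildtype arrays. The groups overlapped near 500, and the log2 fold change was -0.04 ± 0.089 with a 95% interval of -0.24 to 0.16. Its sign was positive when labelled knockout replicate 1 (0.04) or wildtype replicate 2 (0.03) was left out. The other 3 probe sets of Hspa8 had 0.15 ± 0.10, 0.14 ± 0.11 and -0.12 ± 0.26.

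Hspa4, a constitutive Hsp110, read 1774, 1725 and 322 in labelled knockout arrays, against 2045, 2225 and 295 in wildtype arrays. It was lower near 500 (-0.29) and higher near 150 (0.13), and over all arrays it had -0.15 ± 0.11 with an interval of -0.39 to 0.09. Its 2 other kept probe sets had 0.06 ± 0.10 and -0.12 ± 0.15. Hspa2, an Hsp70 best known from spermatogenesis, was dim, at 288, 227 and 73.5 in labelled knockout arrays and 237, 291 and 87.1 in wildtype arrays. Its groups overlapped near 500, and the log2 fold change was -0.11 ± 0.19.

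By class, the medians of inducible and constitutive genes lay close together. The median log2 fold change was -0.12 over 6 inducible genes (range -2.15 to 0.39) and -0.11 over 3 constitutive genes (range -0.15 to -0.04), against 0.02 over all 12536 genes. The inducible class had the wider range, from Hspa1b at its low end to Hspb1 at its high end. Within the arrays scaled near 500 the medians were -0.18 for inducible and -0.07 for constitutive genes, and near 150 they were -0.05 and 0.02. No test of the classes was made, since the members were chosen with these values known.

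Counted by probe set, 4 of the 21 kept were called lower, namely the 3 of Hspa1b and that of Hspa1a, and none was called higher in limma. Over all kept probe sets 1.22% were called lower and 1.04% higher. At an unadjusted p under 0.05, 4 member probe sets were lower and 2, both of Hspb1, higher, where 11.1% of all were lower and 9.33% higher. Since the contrast chose the genes, nothing is read from these counts. The 3 probe sets that the filter removed, 1 of Hspa4 and 2 of Hsp90aa1, were dim, with geometric mean signals of 49.1, 28.6 and 33.7 against a limit of 54.5. Other probe sets of both genes are the ones described above.

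**Figure D2:**
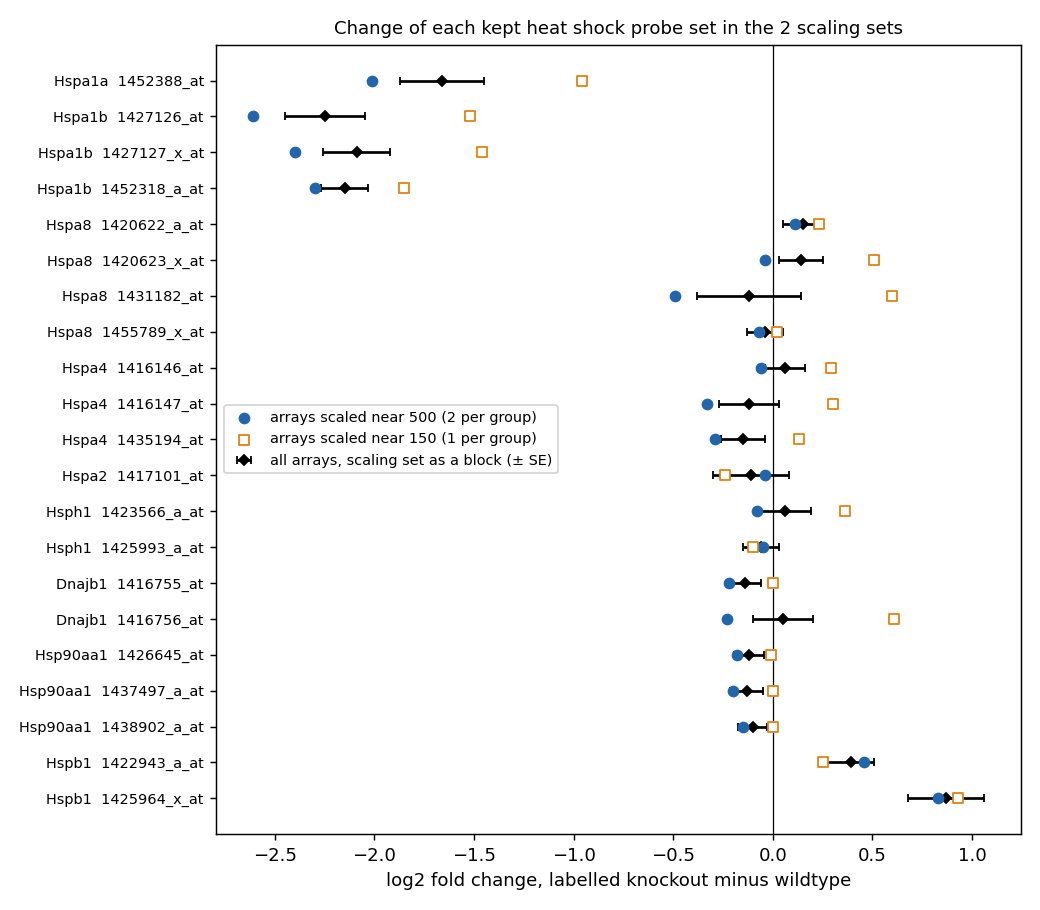
Log2 fold change (labelled knockout minus wildtype) of each of the 21 kept probe sets, named by gene and probe set, over all arrays with the scaling set as a block (black diamonds, ± SE, n = 3 per group), within the 4 arrays scaled near 500 (blue circles) and within the 2 scaled near 150 (orange open squares). The 4 probe sets of Hspa1a and Hspa1b lie between -2.25 and -1.66 over all arrays, and their decrease is smaller near 150 than near 500.

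The 2 scaling sets did not agree in size for every member. Of the 21 kept probe sets, 9 were lower in labelled knockout retina in both sets, 3 were higher in both and 9 had opposite signs, against 27.3% lower in both and 27.3% higher in both among all kept probe sets. The interaction of group and scaling set was fitted in limma over all kept probe sets. Because the genes were chosen from this contrast and its values within the sets, the differences between sets are a description, with no p-value for any member. By the threshold on the adjusted p, 3 member probe sets were called, where 1.19% of all kept probe sets were, and 8 had an unadjusted p under 0.05, where 15.7% of all did, and nothing is read from these counts. For Hspa1b, probe set 1427126_at had -2.61 near 500 and -1.52 near 150, a difference of -1.10 ± 0.20 (SE). For 1427127_x_at the changes were -2.40 and -1.46, a difference of -0.93 ± 0.17. The brightest probe set of Hspa1b had -2.30 and -1.85, a difference of -0.45, and Hspa1a had -2.01 and -0.96, a difference of -1.06 ± 0.26. Neither of these was among the 3.

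The third was the second probe set of Dnajb1, 1416756_at. It read 1562 and 1644 in labelled knockout and 1917 and 1855 in wildtype arrays near 500, but 388 in labelled knockout and 254 in wildtype retina near 150. These are changes of -0.23 and 0.61, a difference of -0.84 ± 0.15. The brighter probe set of Dnajb1 had -0.22 and 0.00. The set near 150 holds 1 array per group, so the SE of these differences comes from the arrays near 500 and from the variance shared over probe sets. No member probe set was called in this way without wildtype replicate 1 or without wildtype replicate 2.

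Hspa1b was set against the 12527 genes outside the member list to find those with the most similar pattern over the 6 arrays. Likeness was the root mean square difference of log2 signals after the mean of each scaling set was subtracted. The 5 nearest were the uncharacterised transcript A930003A15Rik (0.11), the protein disulfide isomerase gene Pdia5 (0.18), Guca1a (0.21), whose product senses calcium for the guanylate cyclase of photoreceptors, the transcript 2810030D12Rik (0.36) and Mef2c (0.43), a transcription factor of neurons and muscle. Hspa1a lay at 0.33. A930003A15Rik read 944, 950 and 86.4 in labelled knockout arrays, against 4735, 4698 and 337 in wildtype arrays, and Pdia5 read 553, 606 and 60.7 in labelled knockout against 2497, 2322 and 228 in wildtype arrays. In each of the 5, as in Hspa1b, the labelled knockout arrays were all below the wildtype arrays of their set. This follows from the choice of the 5 by likeness to Hspa1b over the same arrays, so nothing is read from it.

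**Figure D3:**
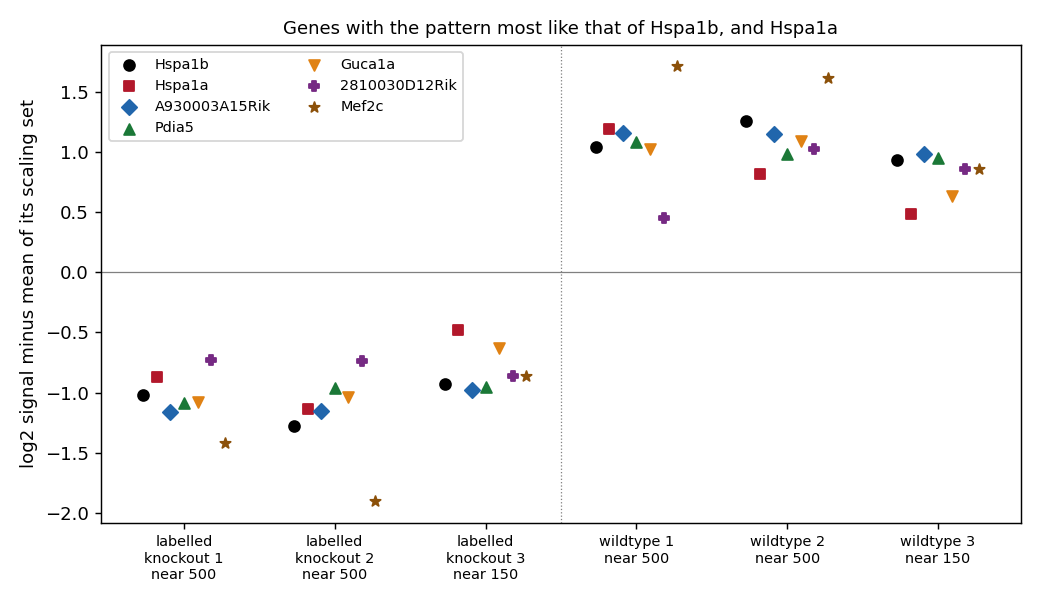
Log2 signal of Hspa1b, Hspa1a and the 5 genes nearest to Hspa1b in pattern, each minus its mean over the arrays of the same scaling set, in the 3 labelled knockout arrays (left of the dotted line) and the 3 wildtype arrays (right). All points of these genes lie below 0 in labelled knockout and above 0 in wildtype arrays, with Hspa1b from -1.28 to -0.93 in labelled knockout and from 0.93 to 1.26 in wildtype arrays. The 5 genes were chosen for this likeness.

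The wider chaperone network was measured through 71 of 81 listed genes outside the member set, 1 probe set each. None was called lower and 3 were called higher in limma, against 1.48% of all genes called lower and 1.28% called higher; at an unadjusted p under 0.05, 10 were lower and 14 higher, where 9.84% of all genes were lower and 11.5% higher. The median log2 fold change of the 71 was 0.06. The 3 called were Cryaa, Cryab and Hsbp1.

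Cryaa and Cryab, the α-crystallins, are small heat shock proteins that are abundant in lens. Cryaa read 6805, 5966 and 6250 in labelled knockout arrays, against 549, 542 and 2138 in wildtype arrays, a log2 fold change of 2.88 ± 0.32 (limma, adjusted p = 0.00271). Cryab read 7099, 6390 and 5661 in labelled knockout arrays, against 2447, 2372 and 2135 in wildtype arrays (1.46 ± 0.074, adjusted p = 1.56e-05), and its second kept probe set had 1.55. The groups did not overlap near 500 for these genes. Near 150 there was 1 array per group, so overlap was not possible. The share of all genes without overlap was not counted, so nothing is read from this. Cryaa also stands on the lens marker list, and the part of lens RNA in both values was not tested. Hsbp1, a small protein that binds HSF1 and restrains it, read 7622, 7648 and 728 in labelled knockout arrays, against 6309, 6056 and 546 in wildtype arrays (0.34 ± 0.071, adjusted p = 0.0431). Its second probe set had the same size (0.34) and did not pass (adjusted p = 0.0598), and with a replicate block the first did not pass either (adjusted p = 0.112, with 0.0148 to 1 over the alternatives). Without the variance trend Cryaa was not called (adjusted p = 0.167, with 5.97e-09 to 1 over the alternatives).

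No other group of the network held a called gene. Of 7 other Hsp70 and Hsp110 genes (median -0.14), Hspa4l, the Hsp110 relative of Hspa4, had the largest change, -0.38 ± 0.12 (adjusted p = 0.123). It read 3184, 3383 and 688 in labelled knockout and 4768, 4998 and 678 in wildtype arrays, so the difference lay in the arrays near 500, and its other 4 probe sets also had negative values, from -0.61 to -0.27. Of 2 other Hsp90 genes, Hsp90b1, the Hsp90 of the endoplasmic reticulum, had -0.02 ± 0.10 (adjusted p = 0.931). Of 16 J-domain protein genes (median -0.06), Dnajb2 had 0.27 ± 0.092 (adjusted p = 0.151).

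Among 19 cochaperones of Hsp70 and Hsp90 the median was 0.09, and Fkbp5, an immunophilin of steroid receptor complexes, had -0.51 ± 0.18 (adjusted p = 0.162). The 10 chaperonin genes, which encode the TRiC ring of the cytosol and Hsp60 and Hsp10 of mitochondria, had a median of 0.17, and 8 of them were higher and 0 lower in both scaling sets, where 31% of all genes were higher and 25.5% lower in both. The largest of these was Tcp1 with 0.23 ± 0.072 (adjusted p = 0.125). The 5 small heat shock protein genes that were not called all had positive values, with Hspb3 at 0.43 ± 0.30 (adjusted p = 0.45). These are values of the brightest kept probe set, and 5876 of all 12536 genes had negative ones. Of the 7 measured in this list, the called ones included, 6 were higher in both scaling sets. The exception, Hspb8, had 0.67 near 500 and -0.06 near 150, and its other kept probe sets differed in sign. Nothing is read from the count by sign. Hsf5, a heat shock factor relative, had -0.47 ± 0.45 (adjusted p = 0.595) at signals near the array medians or below. Hsf4, singled out after its values were seen, had 0.47 ± 0.30 (adjusted p = 0.416), with 0.50 near 500 and 0.39 near 150. Hsf4 was dim too, at 140, 95.8 and 72.3 in labelled knockout and 65.9, 101 and 55.3 in wildtype arrays. Its groups overlapped near 500. The median of the 3 genes measured in this list, Hsbp1 included, was 0.34. Of 7 further genes of proteotoxic stress (median 0.02), the metallothionein gene Mt2 had -0.66 ± 0.19 (adjusted p = 0.105; -0.95 near 500 and -0.07 near 150).

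**Figure D4:**
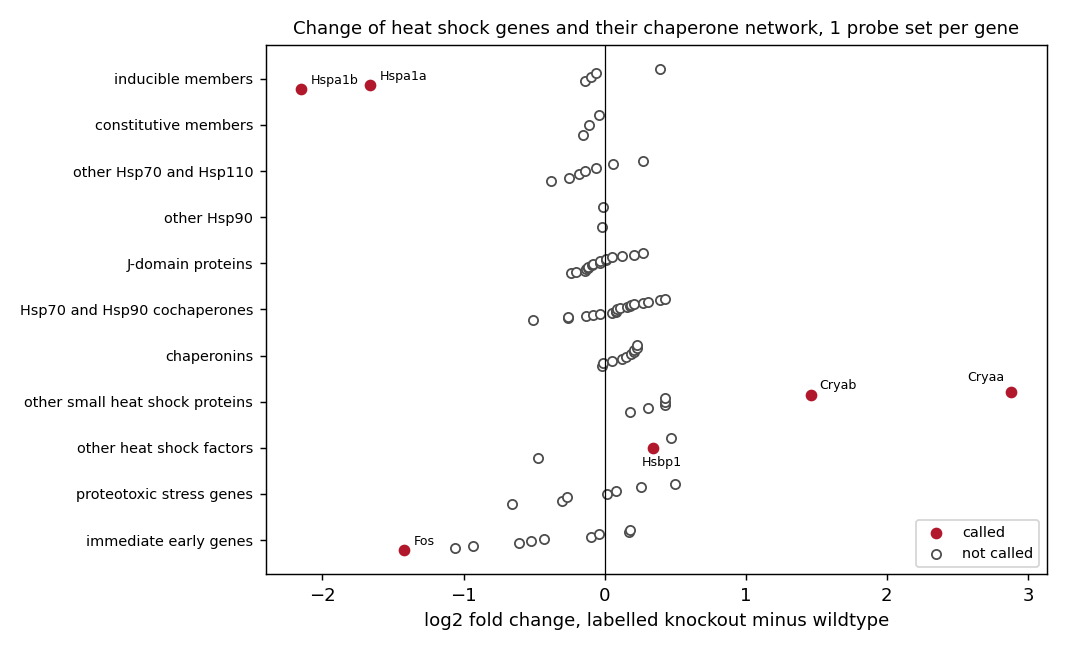
Log2 fold change (labelled knockout minus wildtype, 1 probe set per gene) of the inducible and constitutive members, 8 groups of other chaperone network genes and the immediate early genes. Filled red points were called at an adjusted p under 0.05 and open points were not; Hspa1b and Hspa1a stand at -2.15 and -1.66, apart from the other members, which lie between -0.15 and 0.39.

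Immediate early genes, a class of rapidly induced transcripts that follows neuronal firing and stress, were listed beside the heat shock genes. Of 10 measured, 1 was called lower and none higher, where 1.48% of all genes were called lower and 1.28% higher. Their median was -0.47 (-0.70 near 500 and -0.23 near 150). The gene called was Fos, which read 895, 737 and 317 in labelled knockout arrays, against 3114, 2152 and 597 in wildtype arrays (-1.42 ± 0.18, adjusted p = 0.00577). It was not called without the variance trend (adjusted p = 0.196, with 8.49e-05 to 1 over the alternatives). By mean log2 signal within each set, Fos was lower in both sets (-1.67 near 500 and -0.91 near 150), as were 25.5% of all genes.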

How the data were processed

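Retina RNA of 3 labelled knockout and 3 wildtype samples was hybridised to Affymetrix MOE430 arrays, per the series' design text, after 1 round of amplification from an oligo dT primer, per the labels' protocols. The deposited values are intensities on a linear scale, 1 per probe set and array. GCOS 1.4 and MAS5 are named in the submitters' processing notes, without their role. The table held 45101 probe sets, of which 64 controls were left out. Trimming 2% at either end gave array means of 500 or 150, which defined the scaling sets. Array data carry no read depth, and the 3 arrays per group limit the precision. Each sample pools 2 retinas, and whether different samples share animals is not stated, so the p-values reflect sample spread that may be technical.

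Signals were taken as log2 and not normalized again. The filter kept probe sets at or above the 40th percentile of mean log2 signal, a geometric mean of 54.5, which left 27022. Groups were compared with limma 3.58.1 in R 4.3.3 (variance trend, two-sided, scaling set as a block, 3 residual degrees of freedom), with Benjamini-Hochberg adjustment over all kept probe sets, and the scripts were tested on simulated data. A gene was represented by its brightest kept probe set. Names came from the platform's annotation table, in which 34945 probe sets had 1 symbol, 932 several and 9160 none, and probe sets with several were not named. Deviations from group means correlated at 0.57, 0.67 and 0.843 for replicate numbers 1, 2 and 3. Crossing numbers 1 and 2 had 0.627 and 0.607, and the scaling sets enter all of these values, since number 3 has a scale of its own. Among the arrays near 500 alone, number 1 had 0.0153. These values do not show that the numbers pair the samples. The main fit used the scaling set alone as a block, and a replicate block was an alternative. The named genes were all member probe sets, the called network and immediate early genes, the uncalled gene of largest change in each network list, the 5 genes nearest to Hspa1b, and the defining markers Mip and Rpe65. The members and lists were chosen with earlier results of these data known. Alternatives changed the block, filter, normalization, pseudocount (16), variance trend, probe set rule and arrays. Promoter windows were read from RefSeq tables of GRCm38.p6 and aligned with Biopython 1.88.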

Additional observations from a re-analysis of the deposited data

Results flagged for a closer look

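For 3 member probe sets the change between groups differed between the scaling sets (near 500 minus near 150), with an adjusted p under 0.05 in limma's interaction. The genes were chosen from the same values, so the differences are given as a description and not as a test. The differences of log2 fold changes were -1.10 and -0.93 for 2 of the 3 probe sets of Hspa1b (1427126_at and 1427127_x_at) and -0.84 for the second probe set of Dnajb1 (1416756_at). The brightest probe sets of Hspa1b and Dnajb1 had differences of -0.45 and -0.22. The cause was not tested, and the set near 150 holds 1 array per group.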

How the results depend on the processing

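Of 246 values recomputed under an alternative, 215 stayed on their side and in their direction or within 1.5 times a count. Without the scaling set in the fit no member (4 lower as reported) and no network gene (3 higher as reported) was called. The 2 scales then enter the spread. There 3 member probe sets had an unadjusted p under 0.05. A replicate block kept the 4 member calls and left 2 network genes higher, Hsbp1 being lost, and it changed no other call among the members. Hsbp1 was also lost with no filter, quantile normalization or median centring, and without replicate 1 or 2 of either group. Without the variance trend 1 member probe set, of Hspa1b, and 1 network gene, Cryab, were called, and with no filter on low signal or no variance trend 0 member probe sets differed between sets, with median-centred arrays 1. Median centring also called 1 member probe set higher, of Hspb1. In the arrays scaled near 500 alone, 4 member probe sets were called lower and 2, of Hspb1, higher, with 5 network genes lower and 7 higher. In that setting 7.7% of all kept probe sets were called lower and 5.94% higher. Over all kept probe sets 329 were called lower and 280 higher; the counts were 0 and 0 without the scaling set (118 at an unadjusted p under 0.05), 107 and 93 with the replicate block, 220 and 185 with no filter, 522 and 433 with a stricter filter, 6 and 13 without the variance trend, 2082 and 1605 near 500 alone, and 38 to 2209 and 39 to 1513 leaving out 1 array. Leaving out 1 array at a time gave 3 to 4 member probe sets lower, 0 to 2 higher, 0 to 5 network genes lower, 2 to 7 higher and 0 to 4 member probe sets that differed between sets; the upper numbers of network genes came without replicate 3 of either group. Leave-one-out medians ran from -0.18 to -0.08 for inducible and from -0.14 to -0.04 for constitutive genes. Signs turned for Hsp90aa1 with quantile normalization (0.02), for Hspa8 without labelled knockout replicate 1 (0.04) and without wildtype replicate 2 (0.03), in a leave-one-out range of -0.10 to 0.04, and as the mean of its probe sets (0.03), and for Hsph1 as the mean of its probe sets (0.00). The cause of these shifts was not tested. The difference between sets could not be fitted without the scaling set, with the replicate block, near 500 alone or without replicate 3 of either group.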
